A study of Caenorhabditis elegans with 2 samples.

Results

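The genes described are the cytosolic ribosomal protein genes of Caenorhabditis elegans, taken as every protein-coding gene of the Ensembl annotation whose symbol begins with rpl- (large subunit) or rps- (small subunit), together with the ribosomal stalk genes rla-0, rla-1 and rla-2. The rule gave 81 of 19973 protein-coding genes, of which 47 were large-subunit, 31 small-subunit and 3 stalk genes. RefSeq gave 78 of the 81 a product name with the word ribosome or ribosomal in it. The exceptions were rps-10, rps-30 and rpl-42, which were named for a domain of their product. Of the 78, rpl-24.2 was named there as a putative ribosome biogenesis protein and not as a subunit. The question here is where CEH-28 was recovered near the starts of these genes, and how that compares with other protein-coding genes of the same chromosomes.

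Chromatin immunoprecipitation and sequencing (ChIP-seq) had been carried out against eGFP-tagged CEH-28, an NK-2 class homeodomain protein known from the M4 neuron of the pharynx. There was 1 group of 2 biological replicates, recorded in the labels as separate biosamples. Both were whole L4 larvae, with the sexes mixed, of strain OP241, whose genotype is unc-119(ed3) III and the transgene wgIs241 that carries the tagged protein. The samples form a single group with no second condition to set it against, and the control shared by both replicates was not analysed here. Whole animals were used, so the cells in which a region was bound were not separated.

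Ribosomal proteins assemble with ribosomal RNA in the nucleolus into a large and a small subunit, which join in the cytosol to translate messenger RNA. The small subunit decodes the message, the large subunit forms the peptide bond, and the stalk of the large subunit recruits the elongation factors. Their genes are scattered over the chromosomes and are among the most strongly transcribed in growing larvae.

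The sequences at the member peaks were sorted by short words, 2 of which were picked from these same peaks. Those with none of the words (rpl-35, rpl-12 and rps-12) are not shown. Of the rest, 8 peak centres are printed as examples. Each is 101 bases of the ce11 genome (RefSeq WBcel235), centred on the thresholded summit and written 5′ to 3′ on the strand of the gene. The first 5 were at chrIII:3867535-3867635, plus strand; chrIV:654892-654992, minus strand; chrIV:4750029-4750129, minus strand; chrX:2242931-2243031, minus strand; and chrIII:4475605-4475705, plus strand. Capitals mark the 6-base words TACGGT and GAGTGT, or ACCGTA and ACACTC where they lie on the opposite strand.
rpl-3: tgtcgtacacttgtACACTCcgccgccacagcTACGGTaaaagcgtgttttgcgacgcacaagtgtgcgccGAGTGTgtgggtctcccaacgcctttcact
rpl-15: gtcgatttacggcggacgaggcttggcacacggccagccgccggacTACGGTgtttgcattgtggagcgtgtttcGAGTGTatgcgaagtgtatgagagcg
rpl-20: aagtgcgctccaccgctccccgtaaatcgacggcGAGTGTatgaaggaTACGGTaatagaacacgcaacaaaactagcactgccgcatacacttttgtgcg
rpl-11.2: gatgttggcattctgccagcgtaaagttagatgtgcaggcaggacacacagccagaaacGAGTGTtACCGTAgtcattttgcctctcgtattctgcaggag
rps-1: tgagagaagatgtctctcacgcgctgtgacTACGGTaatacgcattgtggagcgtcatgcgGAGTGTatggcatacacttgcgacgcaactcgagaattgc
The next 3 came from peaks without either word. They were at chrIII:5706414-5706514, minus strand; chrIV:1659433-1659533, plus strand; and chrIII:794125-794225, plus strand. Capitals mark ATCGAT, which reads the same on both strands.
rpl-23: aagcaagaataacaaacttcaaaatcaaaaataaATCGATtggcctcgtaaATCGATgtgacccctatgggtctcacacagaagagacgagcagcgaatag
rps-28: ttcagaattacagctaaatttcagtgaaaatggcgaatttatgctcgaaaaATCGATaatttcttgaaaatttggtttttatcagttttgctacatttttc
rps-29: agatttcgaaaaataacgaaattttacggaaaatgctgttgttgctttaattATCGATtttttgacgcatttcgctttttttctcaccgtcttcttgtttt
The rpl-23 sequence held ATCGAT in 2 copies, and the rpl-3 sequence held GAGTGT in 2 copies, 1 on each strand.

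The authors' lists give a region, a summit and a signal value for each peak, and the scale of the signal is not stated. Summits were assigned to a gene when they lay in its promoter window, from 1000 bp upstream to 500 bp downstream of the gene start. A summit of the thresholded list, which holds the 1739 pooled summits that passed the authors' reproducibility threshold, lay in the window of 15 of the 81 ribosomal protein genes (18.5%). The share was 3.79% in the other protein-coding genes (753 of 19892) and 3.85% in all. If the ribosomal protein genes had the shares of the other genes of their own chromosomes, 3.97 of them would carry one, so the observed number was 3.78 times that. The other genes are not independent of each other or of the members, since the 753 rest on 608 distinct summits, and 12 of them share a summit with a ribosomal protein gene. No test was made of the difference, because the genes were chosen with these results known.

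The 7 chromosome III genes made up the largest group among the 15. On chromosome III 7 of 18 ribosomal protein genes (38.9%) had a thresholded summit, against 6.79% of other genes there. On chromosome IV it was 4 of 18 (22.2%) against 3.22%. On chromosome I, which holds 25 of the 81, only 2 genes had one, and the share of other genes was 6.76%, so there the shares were close. One gene each was found on chromosome II (1 of 10, against 2.82%) and chromosome X (1 of 2, against 3.85%). None of the 8 members on chromosome V had one, against 1.50% of other genes there. With chromosome III left out, 8 of 63 members (12.7%) against 3.33% of other genes had a thresholded summit, and the ratio to the chromosomes' shares was 2.91.

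**Figure D1:**
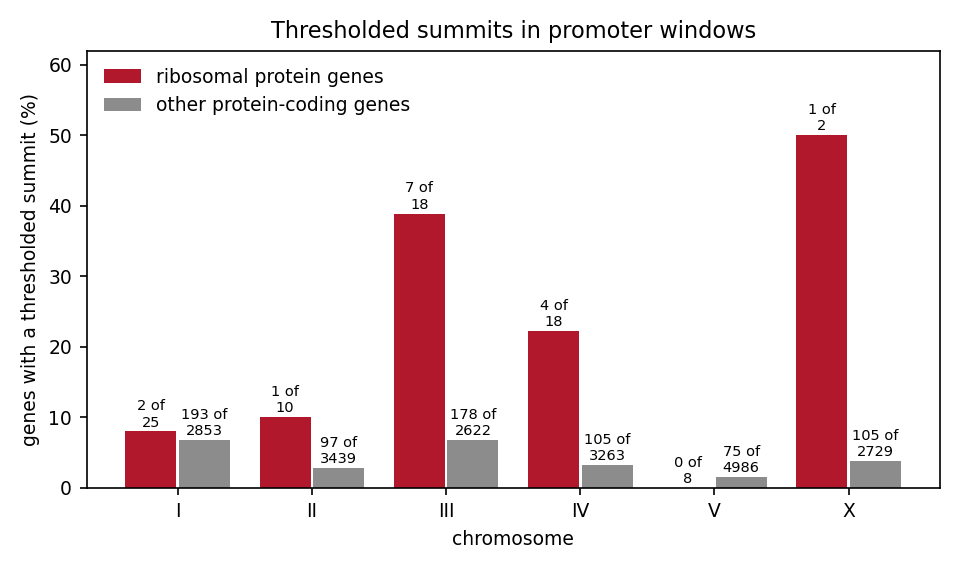
Percent of ribosomal protein genes and of other protein-coding genes, by chromosome, with a thresholded summit in the promoter window; bars start at 0. The member bar is highest on X, where it stands for 1 of 2 genes, then on III (38.9%) and IV (22.2%), lies close to the other genes on I, and is 0 on V.

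Summits of any strength were far more widespread among these genes. The pooled list, which holds 20803 summits down to background, had a summit in the window of 66 of the 81 ribosomal protein genes (81.5%), against 33.9% of other genes and 34.1% of all. The chromosomes' own shares would give 30.3 genes. The member share was above that of the other genes on every chromosome, with 84.0% against 41.4% on I, 60.0% against 34.0% on II, 83.3% against 45.6% on III, 88.9% against 30.9% on IV and 75.0% against 25.8% on V. On X both members had one, against 32.9% of other genes. The highest pooled summit of a window had a median signal of 37.8 in the 66 ribosomal protein genes, against 22.1 in the other genes with a pooled summit. It was above the others' median in 56 of the 66. The 66 genes had 63 distinct highest summits, because 3 pairs of neighbouring ribosomal protein genes share one.

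The same held in each replicate's own list. Replicate 1 had a summit in the window of 66 members (81.5%) against 36.7% of other genes, with a median signal of 25.8 against 15.2. In replicate 2 the count was 64 (79.0%) against 38.5%, with a median of 14.6 against 7.74. Signals ran lower in replicate 2, and members and other genes are therefore compared within a replicate. There were 15 members with no pooled summit, and 10 of these had none in either replicate's list as well.

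**Figure D2:**
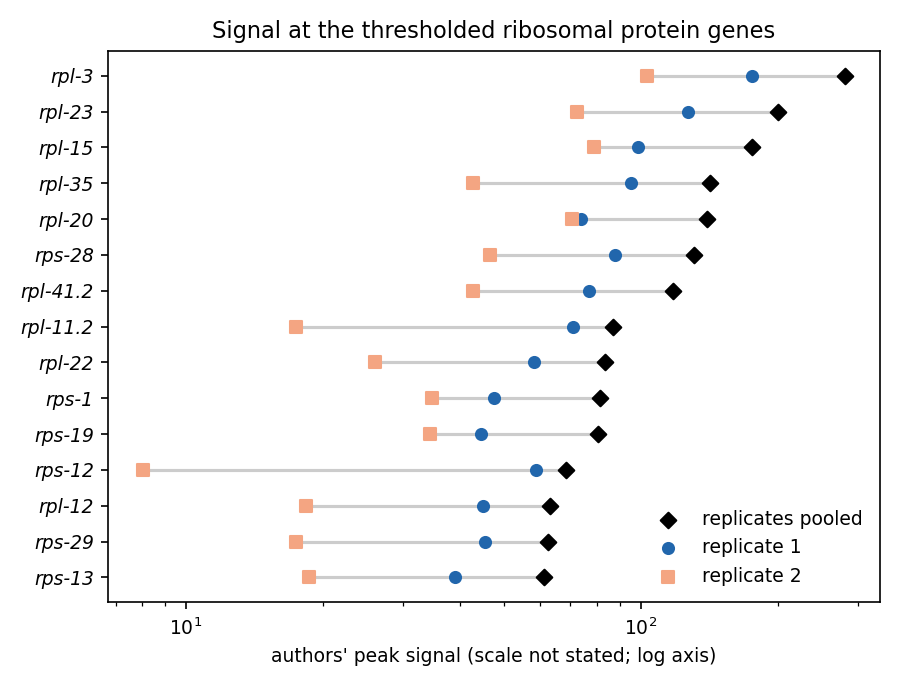
Authors' peak signal (scale not stated, log axis) at each of the 15 ribosomal protein genes with a thresholded summit, in the pooled list and in each replicate, in order of pooled signal. The pooled signal runs from 61.2 at rps-13 to 281 at rpl-3, and replicate 2 lies below replicate 1 at each gene, least so at rpl-20 (70.8 and 74.1) and most at rps-12 (8.06 and 58.9).

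Among the large-subunit genes, 9 of 47 (19.1%) had a thresholded summit and 38 (80.9%) a pooled one, with a median highest pooled signal of 34.2. The peak of highest signal was that of rpl-3, which encodes uL3, a core protein near the peptidyl transferase centre. Its region lay at bases 3867455 to 3867697 of chromosome III in ce11, upstream of the gene at 3867854 to 3869587, and its summit was 269 bp upstream of the gene start. The signal was 281 in the pooled list, where it ranked 147th, 176 in replicate 1 and 103 in replicate 2. The called regions of both replicates lay inside the pooled region, from 391 to 176 bp upstream in replicate 1 and from 381 to 185 bp upstream in replicate 2. Replicate 2 also had a weak region farther upstream, with a signal of 8.13.

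**Figure D3:**
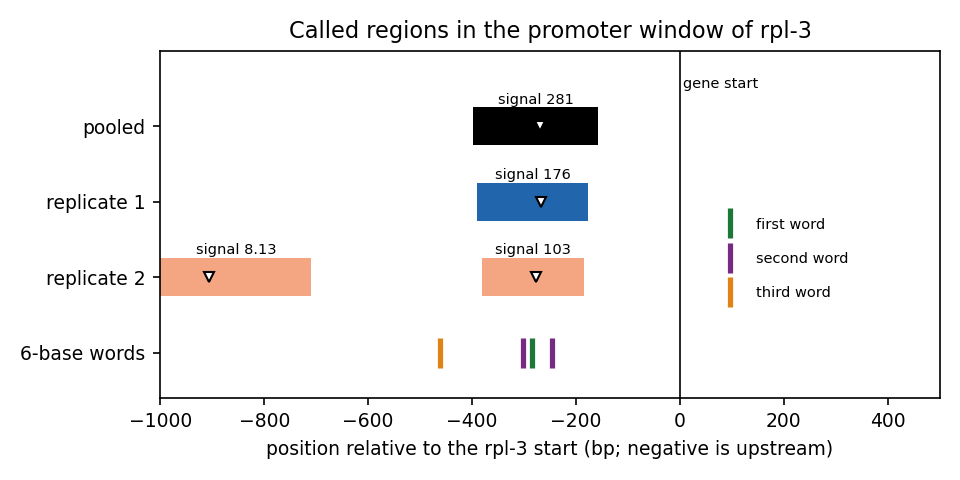
Regions called in the promoter window of rpl-3, in bp from the gene start, in the pooled list and in each replicate, with triangles at the summits. The first word is TACGGT, 287 bp upstream, the second word is GAGTGT, 305 and 248 bp upstream, all inside the pooled region, and the third word is ATCGAT, outside it at 465 bp.

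The next large-subunit genes by pooled signal were rpl-23 and rpl-15. The peak of rpl-23, which encodes uL14, was 337 bp upstream, with a signal of 200 pooled, 127 in replicate 1 and 72.6 in replicate 2. That of rpl-15, which encodes eL15, was 366 bp upstream, with 176 pooled, 98.9 in replicate 1 and 78.9 in replicate 2. Both stood among the 509 highest summits of replicate 1 and among the highest 165 of replicate 2. For rpl-35, which encodes uL29, a protein at the mouth of the exit tunnel, the signal was 142 pooled, 95.0 in replicate 1 and 42.7 in replicate 2, at 436 bp upstream. For rpl-20, which encodes eL20, it was 140 pooled, 74.1 in replicate 1 and 70.8 in replicate 2, at 301 bp. These 5 genes are thus high in both replicates.

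The other 4 large-subunit peaks were lower. At rpl-41.2, on chromosome I, which encodes the very short protein eL41, the signal was 118 pooled, 76.9 in replicate 1 and 42.7 in replicate 2. At rpl-11.2, which encodes uL5, a protein that binds 5S ribosomal RNA, it was 86.8 pooled, 71.0 in replicate 1 and 17.5 in replicate 2. At rpl-22, which encodes eL22, it was 83.3 pooled, 58.2 in replicate 1 and 26.0 in replicate 2. The summits of these genes were 252, 363 and 281 bp upstream. The lowest was rpl-12, which encodes uL11 at the base of the stalk, with 63.1 pooled, 45.1 in replicate 1 and 18.4 in replicate 2. Its summit lay only 36 bp upstream of the gene start, closer than that of any other of the 15 members. The rpl-11.2 peak was among the 1739 highest of replicate 1 (rank 813) but not of replicate 2 (rank 1752).

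Among the small-subunit genes, 6 of 31 (19.4%) had a thresholded summit and 26 (83.9%) a pooled one, with a median highest pooled signal of 42.3. The shares of the small and large subunits were thus nearly equal. The highest was rps-28, which encodes eS28, with 131 pooled, 88.0 in replicate 1 and 46.7 in replicate 2, at 208 bp upstream. It was followed by rps-1, which encodes eS1, with 81.5 pooled, 47.5 in replicate 1 and 34.7 in replicate 2, at 263 bp. The rps-1 summit also lay in exons of the non-coding RNA genes F56F3.10 and F56F3.11. For rps-19, which encodes eS19 and lies on chromosome I, the signal was 80.5 pooled, 44.6 in replicate 1 and 34.4 in replicate 2, at 307 bp.

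The other 3 small-subunit genes lay close to the lowest signal of the thresholded list, 56.5. At rps-12, which encodes eS12, the signal was 68.6 pooled, 58.9 in replicate 1 and 8.06 in replicate 2, at 215 bp upstream. At rps-29, which encodes uS14, it was 62.7 pooled, 45.5 in replicate 1 and 17.5 in replicate 2, at 125 bp. At rps-13, which encodes uS15, it was 61.2 pooled, 39.1 in replicate 1 and 18.6 in replicate 2, at 222 bp. The replicates are farthest apart at rps-12, which ranked 1056th in replicate 1 and 9595th in replicate 2.

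None of the 3 stalk genes had a thresholded summit. The signal of rla-0, which encodes uL10, the protein that anchors the stalk, was 26.3 pooled, 16.1 in replicate 1 and 8.78 in replicate 2. For rla-2, which encodes the acidic protein P2, it was 15.0 pooled and 12.7 in replicate 1, with no summit in replicate 2. For rla-1, which encodes P1, the window held a replicate 1 summit of 10.3 and none in the pooled list or in replicate 2. The lowest signal of the replicate 1 list was 8.67.

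The highest thresholded summit of the window had a median pooled signal of 86.8 in the 15 ribosomal protein genes (61.2 to 281), against 80.3 in the other genes. In 7 of the 15 (46.7%) it exceeded the upper quartile of the others, 113, which 24.8% of the others exceeded, while the highest of the others reached 821. All 15 had the highest −log10 q of the list, 3.76, which therefore did not rank them. Each of the 15 summits lay in a region of its own, and every run of 30 bases in these regions occurred once in the genome. That count is of exact matches, and how the reads there were mapped was not tested.

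Just below the threshold, the highest member signal was 53.8, at a summit shared by rpl-24.1 and rps-10. It lay 784 bp upstream of rpl-24.1 and 174 bp downstream of the rps-10 start, with 39.5 in replicate 1 and 16.4 in replicate 2. Next were rps-6, with 48.0 at 462 bp upstream, and rps-26, with 47.6 at 430 bp. The genes rpl-39 and rps-30 shared a summit of 47.5, with 37.2 in replicate 1 and 8.72 in replicate 2. The 51 members with a pooled summit but no thresholded one had a median of 32.0 (13.9 to 53.8), against 20.5 in the corresponding other genes. Of these weaker members 15 (29.4%) had the highest −log10 q, against 10.1% of the corresponding other genes. At other weaker members the −log10 q was far lower, down to 0.134 at rla-2 and 0.0751 at rpl-28. A pooled summit therefore does not by itself mark a bound region.

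Pairs of genes with the same number were also set side by side. The genes rpl-11.1 and rpl-11.2 both encode uL5, and rpl-11.2 had its thresholded peak of 86.8 while rpl-11.1 had no summit in any list. The genes rpl-41.1 and rpl-41.2 both encode eL41, and their pooled signals were 17.3 and 118. The pooled signal was 53.8 at rpl-24.1 and 23.0 at rpl-24.2, with 39.5 and 19.8 in replicate 1 and 16.4 and 5.67 in replicate 2. The rpl-24.1 summit is the one shared with rps-10, whose start is closer to it. It was 38.1 at rpl-25.1 and 30.7 at rpl-25.2, with 5.80 and 4.99 in replicate 2. In replicate 1 rpl-25.1 had 31.7 and rpl-25.2 had no summit. The replicate 2 values of these 2 genes are near the lowest of that list, 4.69. Their pooled summits lay downstream of the gene start, by 224 and 151 bp.

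The member peaks were placed upstream of the gene start. All 15 summits were within 500 bp upstream, at 36 to 436 bp with a median of 269 bp, against 406 of the 753 other genes (53.9%). A summit from 200 to 440 bp upstream, a range chosen after the positions were seen, was found in 13 of the 15 ribosomal protein genes and in 177 of the others (23.5%). In the others 20.1% of the summits lay downstream of the start. In the pooled list, 46 of 66 members (69.7%) had their highest summit within 500 bp upstream, against 46.7% of other genes. Among the weaker members alone it was 31 of 51 (60.8%), against 45.8%. In annotation terms, 14 of the 15 summits lay between genes, against 443 (58.8%) of the others.

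**Figure D4:**
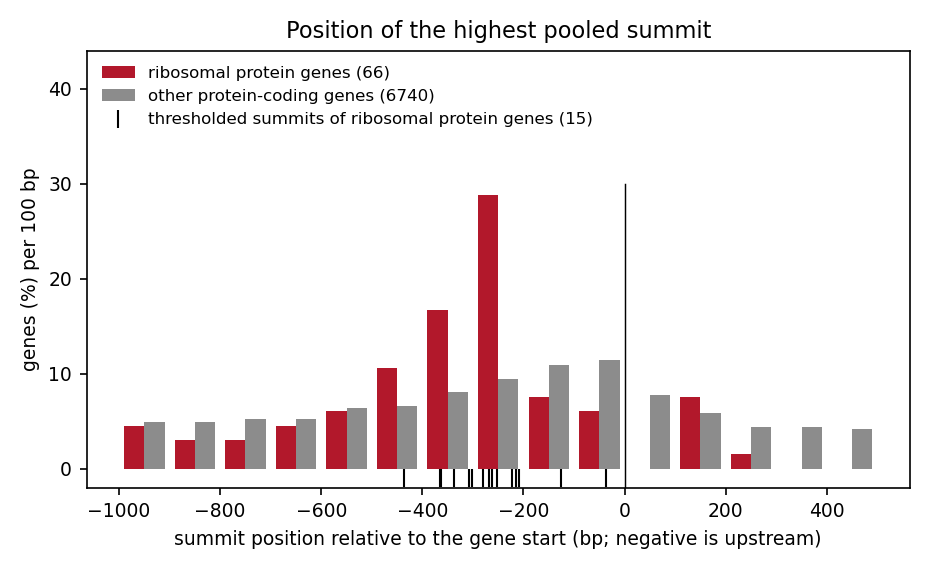
Percent of genes by the distance of the highest summit from the gene start, in bins of 100 bp, for ribosomal protein genes and other genes with a pooled summit in the promoter window. The member share is highest from 300 to 200 bp upstream, where it reaches 28.8%.

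Some of these peaks could as well be assigned to a neighbour. The start nearest to the summit was that of the ribosomal protein gene for 10 of the 15 peaks. For the others it was that of Y17G9B.5 (161 bp from the summit, at the rpl-20 peak), ify-1 (156 bp, at the rpl-22 peak), hsr-9 (138 bp, at the rps-19 peak), ska-3 (78 bp, at the rps-12 peak) and nfx-1 (160 bp, at the rps-13 peak). In 11 of the 15 the summit was also in the promoter window of another protein-coding gene, and in 9 of these it lay upstream of a gene that points the other way. The peaks of rpl-3, rpl-35, rpl-41.2 and rpl-11.2 were in no other window. When each summit counted for the closest gene start alone, within 1000 bp, 10 ribosomal protein genes (12.3%) had a thresholded summit, against 3.40% of other genes.

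The replicates were then compared by rank. Among the 1739 highest summits of each replicate, replicate 1 had one in the window of 14 members (17.3%), against 3.85% of all genes. Replicate 2 had one in 19 members (23.5%), against 3.82% of all genes. Of the 22 genes in either set, 11 were in both, 3 only in that of replicate 1 (rpl-11.2, rps-12 and rps-29) and 8 only in that of replicate 2. In the other genes 501 were in both, 254 only in that of replicate 1 and 243 only in that of replicate 2. In replicate 2 rpl-11.2 and rps-29 ranked 1752 and 1753, just outside the 1739. The 8 members only in the set of replicate 2 were rps-13 and 7 genes without a thresholded summit. The clearest was rps-20, with a signal of 27.3 (rank 815) in replicate 2 and 9.80 (rank 19224) in replicate 1. For rpl-6 the signals were 21.6 in replicate 2 and 12.3 in replicate 1, and for rpl-43 they were 22.1 and 21.3. The other 4, rps-4, rps-23, rpl-7 and rpl-2, had 18.2 to 21.2 in replicate 2 and 21.0 to 39.9 in replicate 1.

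At the 15 thresholded members, the signal of replicate 1 was a median of 1.88 times that of replicate 2 (1.05 to 7.30), against 2.83 times at the thresholded summits of other genes. In 13 of the 15 members the ratio was below the median of the others, whose 10th to 90th percentile range was 1.74 to 4.68. The member peaks were thus a median of 71.0 in replicate 1, against 61.2 in the others, and 34.7 in replicate 2, against 22.0. At the 44 members without a thresholded summit that had a value in both replicates, the highest window signals were used. Their median ratio was 1.95, against 1.96 in the corresponding other genes. The highest signals of a window can belong to different summits in the 2 replicates. The measure thus differs from that in the thresholded regions, and whether the weaker summits share the shift was not tested. Of the thresholded regions, 11 of 15 (73.3%) were among the highest of both replicates, against 65.2% of those of other genes. With only 2 replicates, the part of the signal scale in these ratios was not tested.

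**Figure D5:**
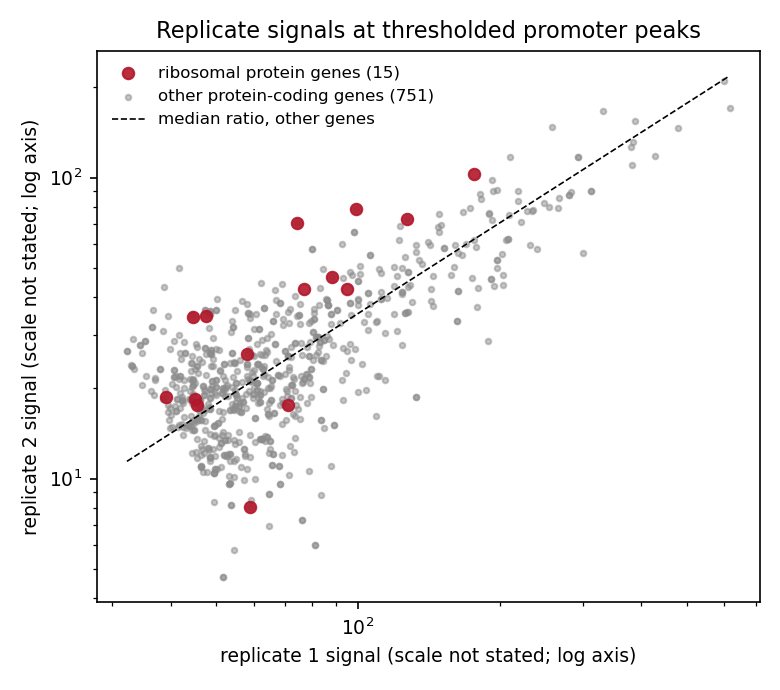
Signal in replicate 2 against signal in replicate 1, on log axes, at the thresholded summits of ribosomal protein genes and of other genes. The member points lie mostly toward higher replicate 2 signal at a given replicate 1 signal, and rpl-11.2 and rps-12 are the 2 below the dashed line, which marks the median ratio of the other genes.

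The sequence within 100 bp of the summit set the member peaks apart by description. ATCGAT, searched in that form and identical on both strands, was found at 4 of the 15 member peaks (26.7%), against 517 of 753 other genes (68.7%). Counting each summit once and leaving out those shared with members, it was 69.0% of 597 other summits. Among genes with the summit within 500 bp upstream the shares were 26.7% and 64.3%, and on chromosome III they were 28.6% (2 of 7) and 68.0%. At the weaker pooled summits ATCGAT was as frequent in the members as in the others, at 15 of 51 (29.4%) against 29.5%.

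The words TACGGT and GAGTGT, searched on both strands, were picked after the fact, as the pair with the largest excess in percentage points at these 15 peaks among the 2080 possible 6-base words (by ratio others exceeded them, such as ACGGTA with 33.3% against 2.52%), so their excess there is no finding. TACGGT was at 7 of the 15 (46.7%), against 7.84% of other genes, and GAGTGT was at 8 (53.3%), against 16.2%. In the other genes 164 had either word, with TACGGT in 59 and GAGTGT in 122. In the members 7 of the 8 peaks with either word had both, and none of the 8 had ATCGAT. Both words were picked for their frequency at these peaks, of which 11 lacked ATCGAT. Their overlap there, their separation from ATCGAT and the class shares below are therefore no finding either. The 8 were rpl-3, rpl-15, rpl-20, rpl-11.2, rpl-22, rps-1 and rps-13, with both, and rps-19, with GAGTGT alone. The 4 peaks with ATCGAT and no other word were those of rpl-23, rpl-41.2, rps-28 and rps-29. The remaining 3, rpl-35, rpl-12 and rps-12, had none of these. In the other genes 57.6% had ATCGAT alone, 10.8% a word alone, 11.0% both kinds and 20.6% none.

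The classes did not separate by height. The median pooled signal was 85.0 in the 8 peaks with a word, 124 in the 4 with ATCGAT and 68.6 in the 3 with none, and the highest peak (rpl-3) and the lowest (rps-13) were both in the first class. The median ratio of replicate 1 to replicate 2 was 1.54, 1.84 and 2.45 in these classes. The medians of the other genes in the same classes were 2.61, 2.89 and 2.72. The member medians were lower but rest on only 8, 4 and 3 peaks, and in the last class the ratio reached 7.30 at rps-12.

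In the 500 bp upstream of all genes, a window that does not use the peaks, TACGGT was found in 36 of the 81 ribosomal protein genes (44.4%), against 13.8% of other genes. For GAGTGT it was 25 (30.9%) against 15.7%, and for ATCGAT 26 (32.1%) against 17.3%. In the 66 members without a thresholded summit, which had no part in picking the words, TACGGT was in 28 (42.4%), against 13.6% of the corresponding other genes. There GAGTGT was in 22.7% against 15.4%, and ATCGAT in 20 (30.3%) against 15.9%. TACGGT was thus found upstream of ribosomal protein genes whether or not a thresholded summit was there. Of the 36 members with TACGGT upstream, 8 (22.2%) had a thresholded summit, near the 18.5% of all 81 members. In the other genes with it the share was 5.09%, against 3.79% of all other genes. The word was picked at the thresholded member peaks, whose summits lie within these 500 bp, so this count is no finding.

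The site of NK-2 class proteins, searched as TCAAGTG or TTAAGTG on both strands, was within 100 bp of none of the 15 member summits, against 24 of the other genes (3.19%). Its shorter core AAGTG was at 10 of the 15 (66.7%), against 37.1%. On chromosome III the core was at 3 of the 7 members (42.9%), against 45.5%, and at the weaker pooled summits it was at 18 of 51 (35.3%), against 38.3%. Over the 500 bp upstream of all genes the full site was in 8 ribosomal protein genes (9.88%), against 10.7% of other genes, and the core was in 67.9% against 68.2%. These letters were looked for in windows of fixed length only.

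Other genes of protein synthesis were described in the same way. Of 70 mitochondrial ribosomal protein genes, which serve the separate ribosomes of mitochondria, 6 (8.57%) had a thresholded summit and 33 (47.1%) a pooled one with a median of 24.6, against 3.85% and 34.1% of all genes. The highest was mrpl-30, with 307 pooled, 229 in replicate 1 and 77.7 in replicate 2. The other 5, mrpl-15, mrps-28, mrpl-11, mrpl-40 and mrpl-55, had 58.6 to 91.7 pooled. Of 10 elongation factors and ribosome partners, 2 had a thresholded summit and 7 (70.0%) a pooled one with a median of 35.1. The 2 were eef-1A.2, a copy of the factor that brings aminoacyl-tRNA to the ribosome, with 230 pooled, 170 in replicate 1 and 60.2 in replicate 2, and iff-2, an eIF5A gene, with 78.9 pooled. Of 12 nucleolar assembly factors, 2 (16.7%) had a thresholded summit and 11 (91.7%) a pooled one with a median of 21.8. The 2 were fib-1, the rRNA methyltransferase fibrillarin, with 131 pooled, 79.9 in replicate 1 and 57.8 in replicate 2, and pro-1, with 91.0 pooled. Beside the 81.5% of the cytosolic ribosomal protein genes, the pooled share was higher in the nucleolar list and lower in the elongation factor list. Beside their 18.5%, the thresholded share was slightly higher with the elongation factors (2 of 10) and slightly lower in the nucleolar list (16.7%). Thresholded shares near that of the ribosomal protein genes were thus also found in these short lists, each resting on 2 genes. The mitochondrial list was lower in both shares.

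Small nucleolar RNA genes, whose products guide the chemical modification of ribosomal RNA, overlapped 13 of the 81 ribosomal protein genes (16.0%), on either strand, against 186 of the other protein-coding genes (0.935%). Of these 13, 4 (30.8%) had a thresholded summit, namely rpl-15, rps-12, rps-13 and rps-29. The share was 18.5% over all 81 members and 11.3% (21 of 186) in the other genes that overlap a small nucleolar RNA gene.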

How the data were processed

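ChIP-seq of eGFP-CEH-28 was deposited as peak lists of 2 biological replicates. The authors deposited, on the ce11 and ce10 builds, a list for each replicate, a pooled list and a list thresholded for reproducibility. The ce10 lists were not used here. In the deposited lists each peak has a signal value of unstated scale and a −log10 q value. The sources used here name no aligner or caller, and the number of reads is unknown, so no interval or floor is given.

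Summit positions were computed from the offsets, written from 1, and placed on Ensembl release 115 genes (WBcel235, the assembly of ce11), with sequence from RefSeq. The thresholded list held the 1739 pooled summits of highest signal, so the 1739 of highest signal in each replicate were taken as its highest summits. The number of members that other genes would give is the sum over chromosomes of members times the share of other genes. Comparisons between members and other genes are descriptions, with no test, since the members were chosen with results known, and 1 group gives no comparison of conditions. The window assignment was tested on simulated data.

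The members and lists were chosen with earlier results of these data known. Genes named were members with a thresholded summit, the 6 next by pooled signal, those among the highest summits of 1 replicate only, paralogues of the same number, nearest neighbours of member peaks, and members of the other lists with a thresholded summit. The stalk genes and F56F3.10 and F56F3.11 were added after their values were seen. Alternatives were other windows, thresholds, assignments and replicates. Python 3.11.15, numpy 2.4.6, pandas 2.3.3 and biopython 1.88 were used.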

Additional observations from a re-analysis of the deposited data

How the results depend on the processing

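Of 38 recomputed values, 29 stayed close to those reported, 9 moved and 0 reversed direction. Plain counts and medians of signal have no direction of their own. With 500 bp on either side of the start the same 15 genes and summits remain, so their median signal and distance could not move. A count stayed close within 1.5 times the reported one, so that 10 genes against 15 did. The ratio did so within 0.964 and the distance within 3.89 bp, each the SD between the replicates' values, and medians of signal and the replicate ratio only where equal to 3 digits. The count of 15 ribosomal protein genes became 7 with summits at or above the median signal (8.64% against 1.47% of other genes), 3 with windows that overlap no other window (3 of 16, 18.8% against 2.89%) and 8 without chromosome III, an alternative chosen after seeing the data. The ratio of 3.78 became 4.92 with 500 bp on either side of the start, 2.80 when only the closest start within 1000 bp counted and 5.26 with isolated windows. Leaving out a replicate gave counts of 14 to 19 and ratios of 3.55 to 4.92, the highest being without replicate 1. The median signal was 124 with the nearest start, where 10 genes remain, and the median distance was -281 bp with 2000 bp upstream, where 17 genes count. The number with ATCGAT was 3 of 15 within 50 bp of the summit and 5 of 15 anywhere in the region. At summits at or above the median signal it was 3 of 7 (42.9%), against 75.7% of other genes. The other genes of protein synthesis numbered 8 to 9 without a replicate, against 10. Other windows, fewer samples or fewer summits define these alternatives, and other causes were not tested.

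The depth behind each list is unknown, so how far it limits the weaker summits was not tested. Signals of neighbouring genes that share a summit are the same value. No paired analysis was possible because both samples belong to 1 group.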
